A study of Homo sapiens with 7 samples.

Results

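F-box proteins are the substrate-recognising adaptors of SCF ubiquitin ligases. Genes of this family were taken here as those whose symbol is FBXO, FBXL or FBXW followed by a number and at most 1 letter. Of 65 such genes in the RefSeq gene table, 59 had a probe set annotated to that gene alone, out of 19775 genes with such a probe set on the array. They were 33 FBXO, 17 FBXL and 9 FBXW genes, and each is represented by its brightest single-gene probe set. The other 6 had no such probe set and have no value of their own here.

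The cells were HSC-3, an established line from a human oral squamous cell carcinoma. They were heated for 90 min at 44 °C or 42 °C and collected after 0, 6 or 12 h of recovery at 37 °C, and the control cells were kept at 37 °C without heating. RNA of each of the 7 conditions went on 1 Affymetrix array, so no difference has a replicate check, no value has a standard deviation, and no p-value is given. The 6 comparisons with the control share the 1 control array, for which the labels give no time.

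An SCF ligase is built on a cullin, CUL1, which holds the RING protein RBX1 at one end and the linker SKP1 at the other. The F-box motif binds SKP1, and the rest of the adaptor binds the protein to be ubiquitinated, often only after that protein has been phosphorylated. FBXW proteins do this with WD40 repeats, FBXL proteins with leucine-rich repeats, and FBXO proteins with other domains. The family is best known for timing the cell cycle and for removing transcription factors. Arrays measure the messenger RNA of the adaptor, not ligase activity or substrate turnover.

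Values are probe set intensities as deposited, and levels are compared between arrays only, never between genes. Intensities below a floor of 21.4, the median of the whole table, were set to the floor, and a fold against a value at the floor is given as at least that size. The words rose and fell are kept for differences of 2-fold or more that held under 3 scalings, namely the deposited values, quantile-normalized values and values with array medians made equal (the median shift). Such a difference is said to pass. Several scalings were used because array medians ranged from 18.7 to 32.1. Of the 59 F-box genes, 51 reached the floor on at least 1 array (86.4%, against 75.7% of all genes). Another 8 stayed below it on every array, namely FBXL8, FBXL13, FBXL22, FBXO15, FBXO40, FBXO43 and the pseudogenes FBXL9P and FBXL21P. Among the 51, 36 reached 4 times the floor (85.4 units) on some array and are called bright.

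The inducible chaperone HSPA6 read 5143, 7596 and 8788 at 0, 6 and 12 h after 44 °C and 12566, 262 and 18.9 after 42 °C, against 4.82 on the control array. It was above the floor on every heated array but that of 42 °C, 12 h. The squamous epithelial markers KRT5, KRT14, ITGA6 and LAMB3 had a summed intensity between 25169.8 and 37461 on the 7 arrays. Of 5 endothelial markers, CDH5, VWF, KDR and TEK were below the floor on every array (summed intensity of the 5 from 48.4 to 85.1). The summed levels were 98.6 to 135 for 4 leukocyte markers, with PTPRC below the floor throughout, and 199.5 to 411 for 5 fibroblast markers, with LUM below the floor throughout. The fibroblast marker COL1A1 read 304, 307 and 273 after 44 °C and 249, 204 and 222 after 42 °C, against 139 on the control array. The leukocyte marker LCP1 and the endothelial marker PECAM1 were also above the floor on every array. CD14 read 40.9 and 43.5 at 44 °C, 6 and 12 h, against 1.92 on the control array. The part of other cells in the results below was not tested.

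In the 13 comparisons made, 16 F-box genes rose or fell at least once and 35 never did (31.4%, against 19.0% of all genes that reached the floor). The 13 comparisons share arrays, and no test was made of this difference. FBXO5, an inhibitor of the anaphase-promoting complex also known as EMI1, FBXW7, which recognises cyclin E, MYC, JUN and NOTCH1, and FBXL5, the iron-sensing adaptor for the iron regulatory protein IREB2, had 5, 4 and 2 of the 35 calls. FBXO44 had the most calls, 7, but its probe sets disagreed. The number of F-box genes that rose or fell was small in each comparison, between 1 and 6 of 51.

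**Figure D1:**
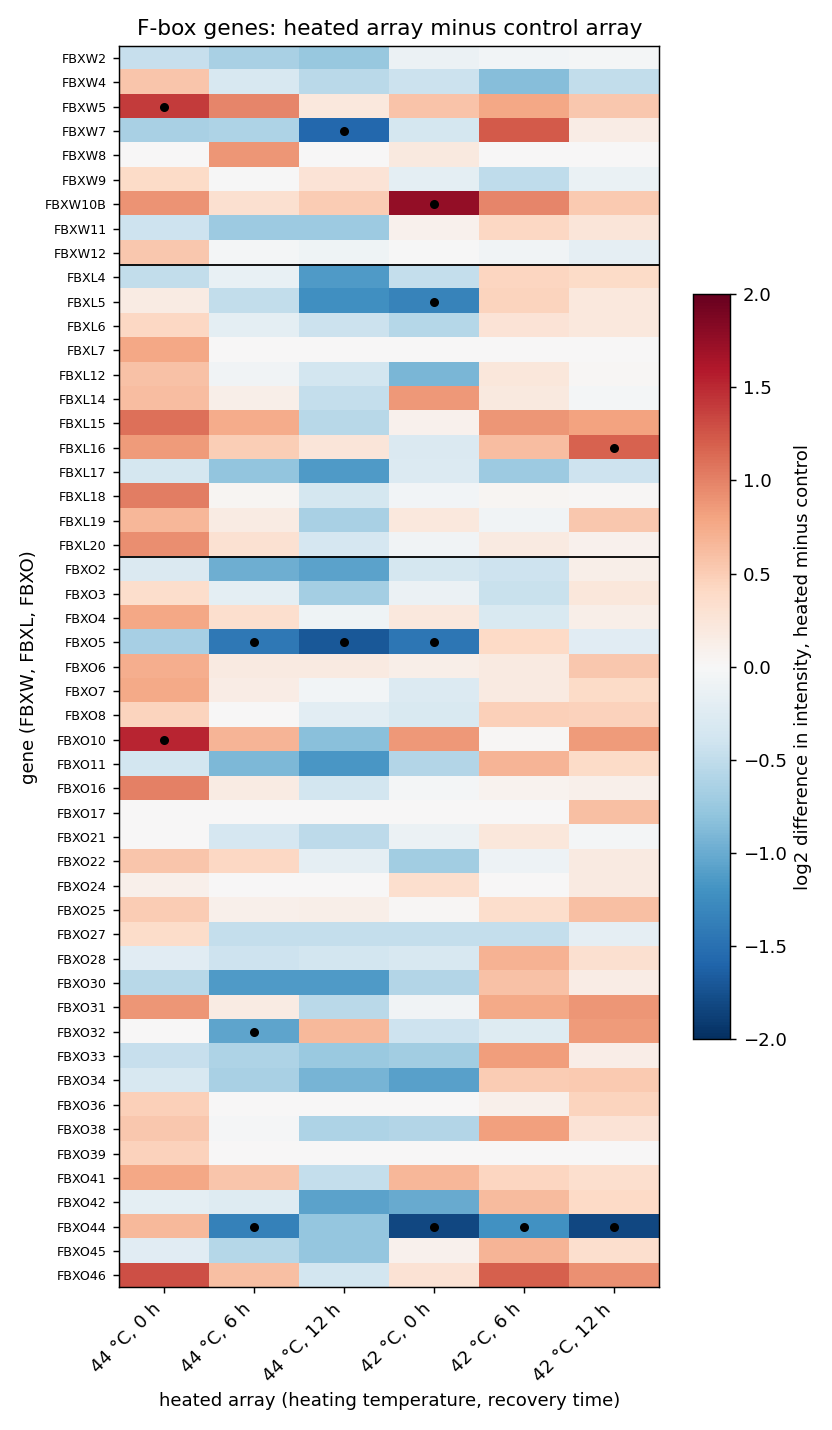
Log2 difference in intensity, heated array minus control array, for the 51 F-box genes that reached the floor (rows, by FBXW, FBXL and FBXO) on the 6 heated arrays (columns, 44 °C then 42 °C, by recovery time). Black dots mark genes past 2-fold under all 3 scalings, such as FBXO5 on 3 arrays, and most cells carry no dot.

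FBXO5 showed the clearest changes. It read 427, 253 and 209 at 0, 6 and 12 h after 44 °C and 250.1, 897 and 581 after 42 °C, against 679 on the control array. The low arrays were 42 °C at 0 h and 44 °C at 6 and 12 h, and at 42 °C the value at 6 h was the highest of all 7.

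FBXO5 fell 2.72-fold at 42 °C, 0 h, 2.68-fold at 44 °C, 6 h and 3.25-fold at 44 °C, 12 h against the control. At 6 h it was 3.55-fold lower after 44 °C than after 42 °C, and within the 42 °C series it was 3.59-fold higher at 6 h than at 0 h. A second probe set for FBXO5 gave log2 differences of -1.43, -1.47 and -0.99 for the 3 comparisons with the control, -1.64 between temperatures and 1.60 between times. Both probe sets therefore moved the same way in all 5 comparisons, and the second fell just short of 2-fold in 1 of them. From 6 to 12 h after 44 °C, where FBXO5 did not pass, the probe sets differed in sign (-0.28 and 0.48). In bulk RNA, fewer cells that express a gene and less of its RNA per cell cannot be told apart.

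FBXL5 had a similar early dip at 42 °C. Its values were 941, 600.4 and 359 at 0, 6 and 12 h after 44 °C and 333, 1151 and 974 after 42 °C, against 842.5 on the control array. The 42 °C, 0 h array was the lowest and the 42 °C, 6 h array the highest. FBXL5 fell 2.53-fold at 42 °C, 0 h against the control and was 3.45-fold higher at 42 °C, 6 h than at 0 h. Its second probe set gave log2 differences of -0.72 and 1.20. At 44 °C, 12 h the deposited log2 difference from the control was -1.23, but quantile-normalized values gave -0.85 and median-shifted values -0.78, so that comparison did not pass. The second probe set of FBXL5 gave -1.47 there, as deposited.

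FBXW7 differed between the temperatures at 6 and 12 h. The probe set used read 93.2, 95.4 and 49.0 at 0, 6 and 12 h after 44 °C and 115, 342 and 161 after 42 °C, against 146 on the control array. By this probe set every 44 °C array was below the control and below the 42 °C array of the same time, and 42 °C, 6 h stood highest. At 0 h another FBXW7 probe set was higher after 44 °C than after 42 °C (79.9 against 65.6) and above the control (74.7), and a further one read 116 after 44 °C and 115 after 42 °C.

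At 6 h FBXW7 was 3.59-fold lower after 44 °C than after 42 °C, and all 3 of its other probe sets above the floor had the same sign, with log2 differences from -1.95 to -0.44 and 2 of them past 2-fold. At 12 h it was 3.30-fold lower after 44 °C than after 42 °C and 2.98-fold lower than the control, but here the other probe sets ranged from -0.59 to 0.13 and from -0.09 to 0.20. The fall of FBXW7 at 12 h thus rested on 1 probe set. From 0 to 6 h after 42 °C FBXW7 rose 2.98-fold, with all 3 other probe sets higher (0.44 to 1.34, 2 past 2-fold). Against the control, 42 °C, 6 h was 1.23 log2 units higher as deposited, but 0.96 with quantile-normalized and 0.94 with median-shifted values, and did not pass.

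Several FBXO genes shared the pattern of a high 42 °C, 6 h array as deposited. That array was itself brighter than the control, by a median of 0.24 log2 units over probe sets above the floor on all arrays. With median-shifted values, 13 of the 36 bright F-box genes were highest at 6 h within the 42 °C series, and 14 were lowest there. FBXO11, the adaptor for BCL6, read 417, 288 and 241 at 0, 6 and 12 h after 44 °C and 357, 859 and 705 after 42 °C, against 538 on the control array. FBXO30, a muscle atrophy ligase adaptor in mouse, read 251, 167 and 168 after 44 °C and 245, 552 and 406 after 42 °C, against 367. FBXO33 read 238, 215 and 195 after 44 °C and 202, 588 and 358 after 42 °C, against 328. By the probe sets used, all 3 had their highest value at 42 °C, 6 h, and at 6 and 12 h their 44 °C arrays were below both the control and the 42 °C arrays. A dimmer FBXO11 probe set was below the control at 42 °C, 6 h (41.1 against 51.1), and another was above it (342 against 240).

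At 6 h, FBXO11 was 2.98-fold, FBXO30 3.31-fold and FBXO33 2.73-fold lower after 44 °C than after 42 °C. FBXO33 passed with a log2 difference of -1.0004 after the median shift, at the threshold, and its second probe set gave -0.56. For FBXO11 the other probe sets gave -0.95 and 0.12. FBXO30 had no other probe set above the floor. With FBXO5 and FBXW7 these made 5 of 51 F-box genes lower and 0 higher at 44 °C, 6 h against 42 °C, 6 h (9.80%), where 5.71% of all genes passed in either direction and 4.03% were lower and 1.68% higher.

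**Figure D2:**
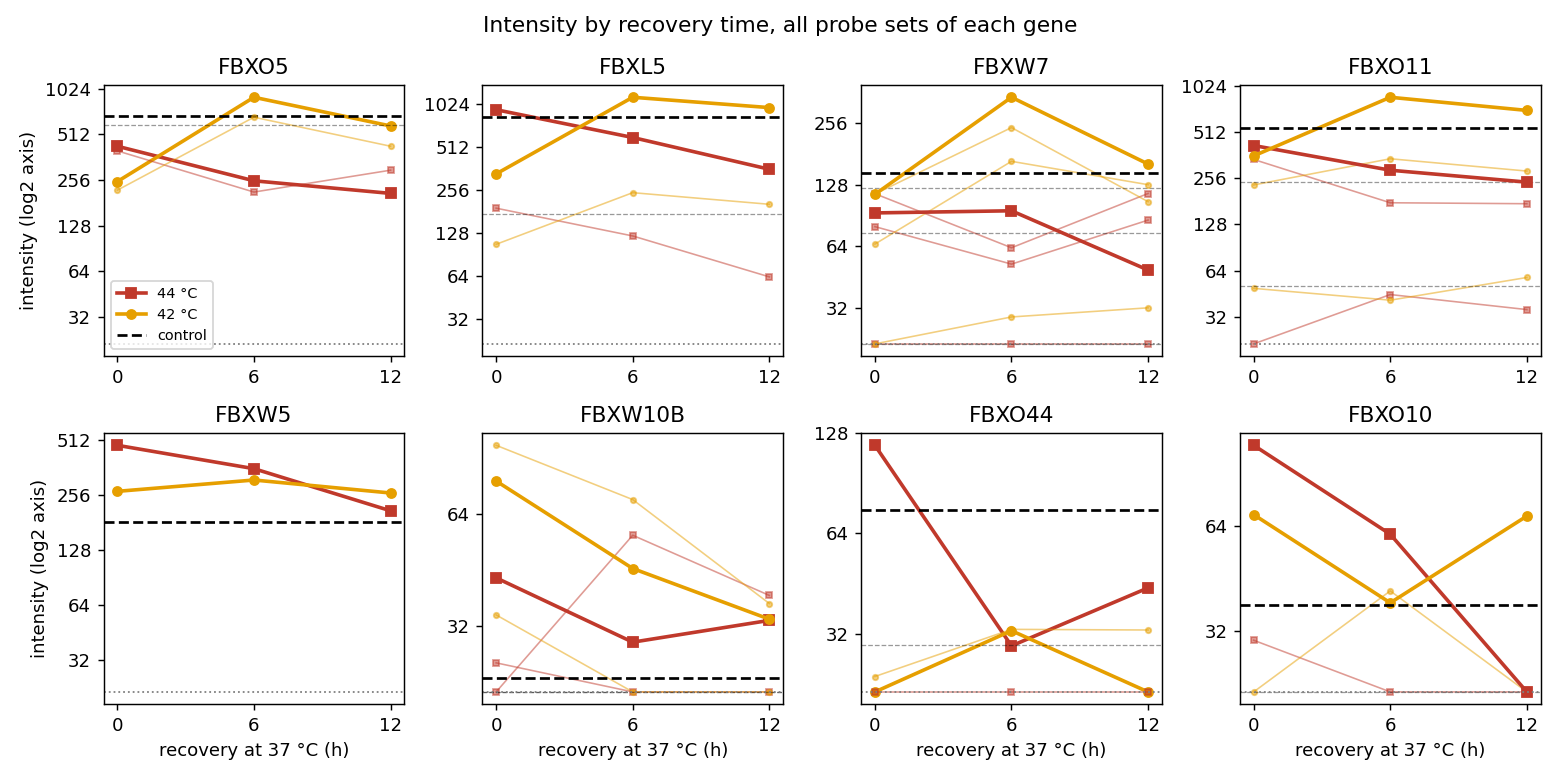
Probe set intensity (log2 axis) against recovery time for 8 F-box genes, with 44 °C in red squares, 42 °C in orange circles and the control array as a dashed line. Thick lines are the probe set used, thin lines the other probe sets of the gene, and the dotted line is the floor. Both probe sets of FBXO5 and of FBXL5 are higher at 42 °C, 6 h than at 42 °C, 0 h, while those of FBXO44 diverge at 44 °C, 0 h.

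The rise from 0 to 6 h after 42 °C held 6 calls, more than any of the other 12 comparisons under the 3-scaling rule. With deposited values alone it held 11, all higher at 6 h. By that setting 44 °C against 42 °C at 12 h held 16, most of them lower at 44 °C. The arrays themselves differed in level as deposited. The median log2 difference over all bright genes was 0.35 from 0 to 6 h after 42 °C. For 44 °C minus 42 °C at 12 h that median was -0.54. No share of all genes is given for deposited values alone or for the mean of the probe sets of a gene. With the mean of the probe sets of a gene, the step from 0 to 6 h after 42 °C held 3 calls. By that mean 44 °C against 42 °C at 6 h held 4, in either direction. FBXO5, FBXL5, FBXW7, FBXO33, FBXO34 and FBXO42 rose and 0 fell, which is 6 of 51 (11.8%), where 4.50% of all genes passed in either direction and 3.47% were higher and 1.04% lower. FBXO34 read 463, 367 and 303 at 0, 6 and 12 h after 44 °C and 272, 821 and 827 after 42 °C, against 577 on the control array. FBXO42, reported to direct ubiquitination of p53, read 113, 108 and 61.5 after 44 °C and 64.1, 201 and 171 after 42 °C, against 129.

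Both were below the control on the 42 °C, 0 h array and above it at 6 h. FBXO34 rose 3.02-fold and FBXO42 3.13-fold between these times. The other 2 probe sets of FBXO42 above the floor gave log2 differences of 0.85 and 1.01, while FBXO34 has 1 probe set. Against the control at 42 °C, 0 h, FBXO34 and FBXO42 differed by -1.08 and -1.01 log2 units as deposited, and by -0.96 and -0.81 after quantile normalization, so neither passed there. This comparison between times was added after the values were seen. Bright F-box genes had a median log2 difference of 0.58 in it (32 genes), against 0.35 for the 8909 bright genes of the array. Of these 32, 18 were above that bright median and 14 below it. Over all 51 F-box genes the median was 0.26, against 0.20 for all genes that reached the floor. With quantile-normalized values both were 0, and with median-shifted values they were 0 and -0.03.

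The other steps of recovery held 1 to 3 calls each. From 6 to 12 h after 42 °C 1 of 51 F-box genes passed (1.96%, against 1.85% of all genes, 0.962% higher and 0.888% lower), FBXO32, which encodes the muscle atrophy adaptor atrogin-1. From 0 to 6 h after 44 °C FBXO44 was the 1 called (1.96%, against 1.42%, of which 0.220% higher and 1.20% lower), and from 6 to 12 h FBXO32 rose and FBXO10 and FBXL15 fell (5.88%, against 1.83%, of which 0.955% higher and 0.875% lower). FBXO32 read 44.6, 11.7 and 69.8 after 44 °C and 33.3, 36.9 and 79.7 after 42 °C, against 44.3 on the control array.

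FBXO32 was at least 2.08-fold lower than the control at 44 °C, 6 h, at least 3.27-fold higher at 44 °C, 12 h than at 6 h, and 2.16-fold higher at 42 °C, 12 h than at 6 h. Its other probe sets above the floor had the opposite sign for the first of these (log2 differences of 0.34 and 0.44) and disagreed for the second (-0.15 and 1.55). For the last they had the same sign (0.06 and 0.39). FBXL15, an adaptor for the ligase SMURF1, read 69.8, 54.6 and 22.2 after 44 °C and 34.5, 60.01 and 56.9 after 42 °C, against 32.6, and fell 2.46-fold from 6 to 12 h after 44 °C. These values lie close to the floor, where a small change in intensity gives a large fold.

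FBXW5 and FBXO10 were higher straight after 44 °C. FBXW5, an adaptor for the centriole assembly protein SASS6, read 479, 356 and 209.6 at 0, 6 and 12 h after 44 °C and 268, 309 and 262 after 42 °C, against 181 on the control array. All 6 heated arrays were above the control. FBXW5 rose 2.64-fold at 44 °C, 0 h and has 1 probe set.

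FBXO10, an adaptor for BCL2, read 109, 60.7 and 12.2 after 44 °C and 69.1, 38.5 and 68.5 after 42 °C, against 38.1. It rose 2.87-fold at 44 °C, 0 h, where a second probe set gave a log2 difference of 0.49. At 12 h after 44 °C it was below the floor, at least 3.21-fold lower than at 42 °C, 12 h and at least 2.84-fold lower than at 44 °C, 6 h. The 44 °C series thus held both its highest value of the 7, at 0 h, and its lowest, at 12 h. FBXW5 and FBXO10 were 2 of 51 F-box genes past 2-fold at 44 °C, 0 h against the control (3.92%, against 2.99% of all genes, 2.32% higher and 0.668% lower).

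FBXW10B was the F-box gene that rose most at 42 °C, 0 h. It read 43.1, 29.0 and 33.2 after 44 °C and 78.3, 45.7 and 33.4 after 42 °C, against 23.2 on the control array, all dim values. It rose 3.37-fold at 42 °C, 0 h, and its other 2 probe sets above the floor gave log2 differences of 0.68 and 2.19. A probe set annotated to both FBXW10B and its near-copy FBXW10 read 44.6, 73.0 and 124 at 0, 6 and 12 h after 44 °C and 11.2, 27.2 and 16.3 after 42 °C, against 8.33 on the control array. That probe set is highest at 44 °C, 12 h, while the FBXW10B-only probe sets above the floor are all highest at 42 °C, 0 h (78.3, 97.6 and 34.3). Whether the FBXW10B-only probe sets also read FBXW10 was not tested, so the FBXW10B value is uncertain.

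The promoter windows of FBXW10B and FBXW10, which hold letters like a heat shock element, the binding motif of HSF1, are printed. That of FBXW5, which holds the shorter form, is printed as well. Of these genes, FBXW10B and FBXW5 rose after heat. Windows of FBXO15, FBXL7, FBXO36 and FBXO47 also hold such letters and are not printed. Whether the letters bear on the rises was not tested. Windows run from 250 bases before to 50 bases after the annotated start, from RefSeq on GRCh38.p14, and capitals mark each match to GAANNTTC or TTCNNGAA. The first 2 are at chr17:15619655-15619954 (minus strand) and chr17:18743804-18744103 (plus strand), the last at chr9:136944689-136944988 (minus strand).
FBXW10B: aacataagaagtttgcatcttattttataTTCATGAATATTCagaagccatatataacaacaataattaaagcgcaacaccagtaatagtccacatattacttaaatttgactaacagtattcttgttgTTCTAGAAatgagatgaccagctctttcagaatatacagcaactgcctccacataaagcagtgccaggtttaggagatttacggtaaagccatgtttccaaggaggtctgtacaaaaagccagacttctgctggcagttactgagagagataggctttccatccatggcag
FBXW10: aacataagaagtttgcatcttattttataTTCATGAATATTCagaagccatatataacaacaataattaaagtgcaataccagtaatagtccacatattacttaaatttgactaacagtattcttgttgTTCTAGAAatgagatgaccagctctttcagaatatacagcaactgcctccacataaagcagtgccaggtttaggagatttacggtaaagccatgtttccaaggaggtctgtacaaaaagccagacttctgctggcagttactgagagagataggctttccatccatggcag
FBXW5: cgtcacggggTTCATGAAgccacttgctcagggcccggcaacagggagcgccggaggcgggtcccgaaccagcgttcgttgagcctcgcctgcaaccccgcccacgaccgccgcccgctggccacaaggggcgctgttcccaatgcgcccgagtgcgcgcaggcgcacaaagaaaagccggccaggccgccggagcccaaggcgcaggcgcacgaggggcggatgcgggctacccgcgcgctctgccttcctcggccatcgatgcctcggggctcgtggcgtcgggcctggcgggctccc

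The FBXW10B and FBXW10 windows are identical at 298 of 300 bases. Both hold a match to the 3-unit form (a GAA, a TTC and a GAA, or a TTC, a GAA and a TTC, each 2 bases apart), made of 2 overlapping 2-unit matches, and a further 2-unit match nearer to the start. The 3-unit form occurs in 0.490% of the 35116 promoter windows in the table, and in the windows of FBXW10B, FBXW10 and FBXO15 among F-box genes. FBXW5 has 1 match to the 2-unit form, which 13.5% of all windows hold. Each form reads the same on both strands or has its reverse complement in the search. Of the 51 F-box genes above the floor, 40 had a window, and 4 of those 40 genes held a 2-unit match (FBXW10B, FBXW5, FBXL7 and FBXO36). By windows this was 6.90% of their 58, against 13.5% of all windows. The windows of FBXO5, FBXL5 and FBXW7 held neither form. The E2F letters TTTGGCGC or TTTCGCGC, searched on both strands, occur in 1.15% of all windows and in 0 of the 58 windows of those 40 genes. A match is a description of the letters and not evidence of binding.

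FBXO44 had 7 calls, and 1 probe set carried them. FBXO44 is the neighbour of FBXO2 and FBXO6 in the genome and shares with them the F-box associated domain, which in FBXO2 and FBXO6 binds glycoproteins. It read 118, 29.4 and 43.9 at 0, 6 and 12 h after 44 °C and 12.5, 32.6 and 18.2 after 42 °C, against 75.2 on the control array. By this probe set FBXO44 was below the control on 5 heated arrays and above it on 1.

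FBXO44 fell at least 3.52-fold, 2.31-fold and at least 3.52-fold at 42 °C, 0, 6 and 12 h, and 2.56-fold at 44 °C, 6 h. It was at least 5.52-fold higher at 44 °C, 0 h than at 42 °C, 0 h, at least 2.06-fold higher at 44 °C, 12 h than at 42 °C, 12 h, and 4.01-fold lower at 44 °C, 6 h than at 0 h. The second probe set had the same sign in 2 of the 6 of these comparisons in which it was above the floor, with log2 differences of -0.62 to 0.15, and never reached 2-fold. The probe set used ends in x_at, the manufacturer's mark for probes that can match other transcripts. Those used for FBXO2, FBXO38 and FBXW12 carry the same mark, and the other probe set of FBXW12 was below the floor on every array. FBXO2 read 47.4, 29.3 and 27.5 after 44 °C and 45.6, 43.5 and 62.7 after 42 °C, against 57.9. FBXO6 read 146, 99.98 and 100.4 after 44 °C and 95.8, 100.2 and 128 after 42 °C, against 88.3, and neither neighbour passed in any comparison.

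Counted per comparison with the control, 4 of 51 F-box genes passed at 42 °C, 0 h (7.84%, against 4.48% of all genes, 1.46% higher and 3.02% lower), FBXW10B up and FBXL5, FBXO5 and FBXO44 down. At 42 °C, 6 h FBXO44 was the 1 called (1.96%, against 3.27%, of which 1.36% higher and 1.92% lower). At 42 °C, 12 h FBXL16 rose and FBXO44 fell (3.92%, against 2.28%, of which 0.955% higher and 1.33% lower). FBXL16 read 46.7, 36.5 and 30.7 after 44 °C and 20.3, 40.0 and 58.7 after 42 °C, against 26.0, a rise of 2.26-fold that was 1.0016 log2 units after the median shift. After 44 °C, 6 h FBXO5, FBXO32 and FBXO44 fell (5.88%, against 3.93%, of which 1.49% higher and 2.44% lower), and after 44 °C, 12 h FBXO5 and FBXW7 fell (3.92%, against 4.64%, of which 1.70% higher and 2.94% lower). The F-box shares rest on 1 to 4 genes each and are not read as particular to the family.

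Between temperatures, 2 of 51 F-box genes were higher at 44 °C, 0 h than at 42 °C, 0 h (3.92%, against 3.58% of all genes, 2.97% higher and 0.608% lower), FBXO44 and FBXL12. FBXL12 read 439.5, 278 and 227 after 44 °C and 155, 345 and 299 after 42 °C, against 294 on the control array. It was 2.83-fold higher at 44 °C, 0 h, with a log2 difference of 1.0015 after the median shift, at the threshold. At 12 h FBXO44 was higher and FBXO10 and FBXW7 lower after 44 °C (5.88%, against 4.91%, of which 1.76% higher and 3.15% lower).

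**Figure D3:**
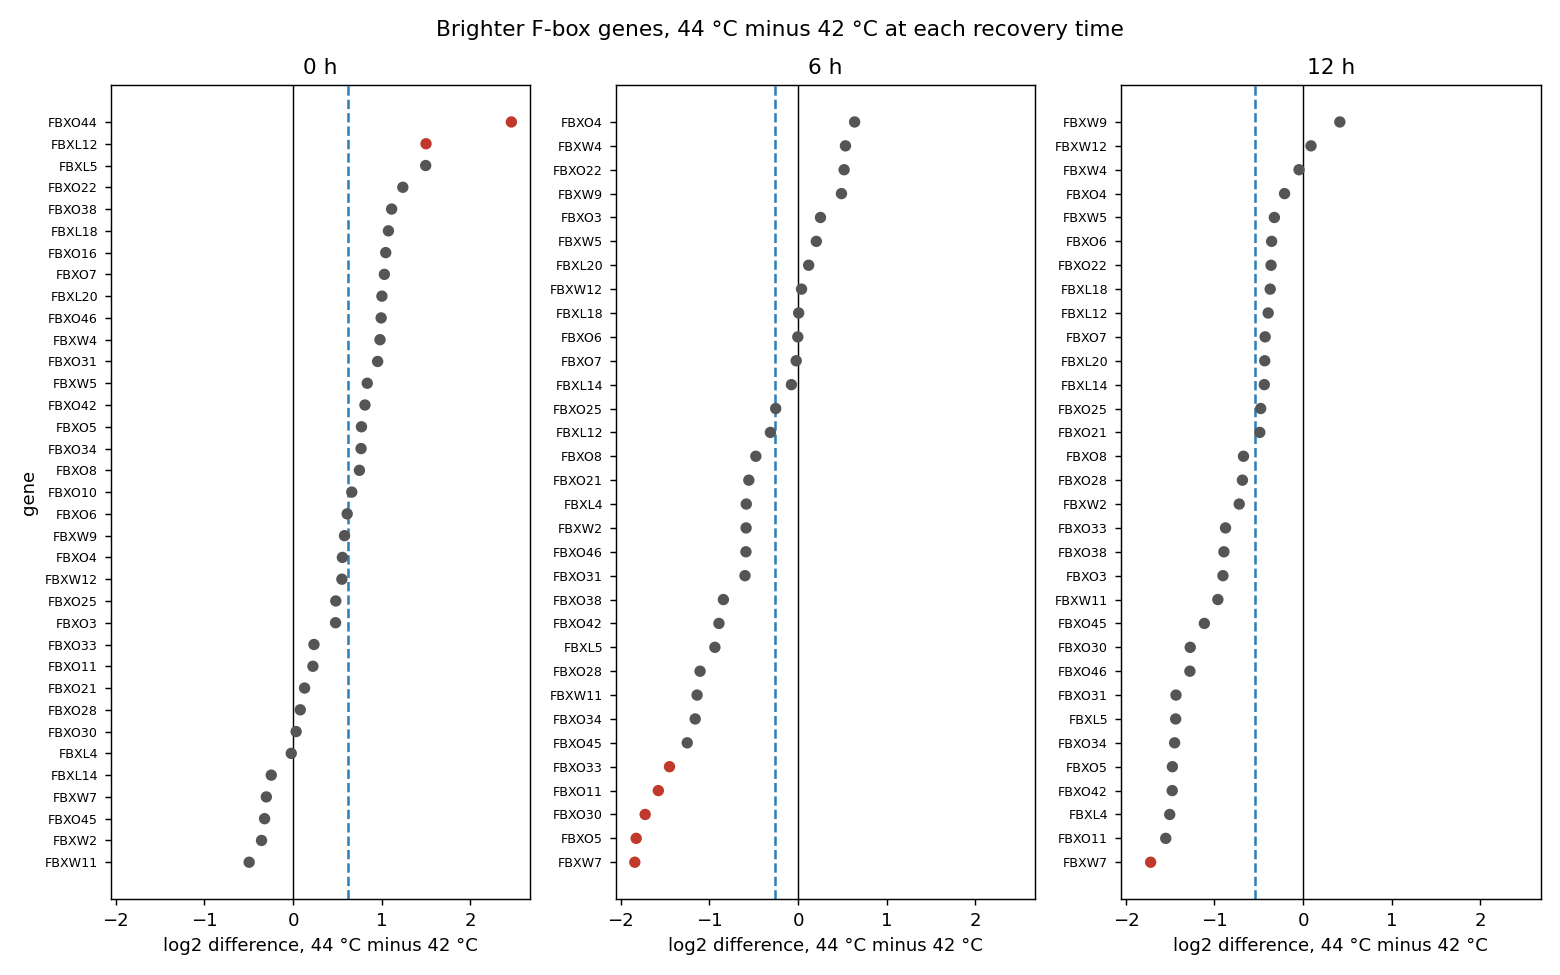
Log2 difference, 44 °C minus 42 °C, at 0, 6 and 12 h (panels) for F-box genes whose higher value in the pair was at least 4 times the floor. Red points passed 2-fold under all 3 scalings, and the dashed line is the median of all bright genes, at 0.62, -0.26 and -0.54. FBXW7 is the lowest point at 6 and 12 h.

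The gap between the family median and that of all genes depended on the scaling. At 44 °C, 12 h against 42 °C, 12 h the median log2 difference was -0.64 over 51 F-box genes and -0.27 over all genes that reached the floor, and against the control it was -0.48 and -0.16. With quantile-normalized values these were -0.24 and 0, and -0.09 and 0. With median-shifted values they were -0.06 and 0.10, and -0.03 and 0.10. Among bright genes the deposited values gave -0.70 over 32 F-box genes and -0.54 over all, and -0.53 and -0.31. At 44 °C, 6 h against 42 °C, 6 h bright F-box genes had a median of -0.57 and all bright genes -0.26. Of the 32 bright F-box genes at 44 °C, 12 h, 23 were below the bright median of that comparison with the control and 9 above it. That split was the most uneven of the 13 comparisons. For 44 °C, 12 h against 42 °C, 12 h, 18 were below and 14 above. Over the 13 comparisons the F-box median as deposited lay between 0.37 below and 0.12 above that of all genes.

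The remaining adaptors with well-known roles stayed within 2-fold under at least 1 scaling. FBXW11, which with its paralogue BTRC recognises phosphorylated NFKBIA and beta-catenin, read 623, 502 and 501 after 44 °C and 878, 1105 and 975 after 42 °C, against 828 on the control array. FBXO45, which works with the ligase MYCBP2, read 789.8, 621 and 543 after 44 °C and 987, 1478 and 1175 after 42 °C, against 926. For both, all 44 °C arrays were below the control and all 42 °C arrays above it.

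FBXW2 read 773, 685 and 631 after 44 °C and 989, 1028 and 1039 after 42 °C, against 1069.7. By this probe set no heated array exceeded the control as deposited, while 42 °C, 0 h was 0.06 log2 units above it after the median shift. A second probe set read 602.5, 463 and 401 after 44 °C and 474, 671 and 695 after 42 °C, against 602.2. Those reading 145 and 59.6 in the control had no heated array above it. The dimmest was above the floor at 44 °C, 0 h alone (24.2). FBXO22, an adaptor for BACH1, read 815, 739.6 and 491 after 44 °C and 345, 516 and 631 after 42 °C, against 556. FBXO7, mutated in an inherited form of parkinsonism, read 1281, 840.2 and 728 after 44 °C and 627, 852 and 979.7 after 42 °C, against 755. As deposited, FBXO22 and FBXO7 were highest at 44 °C, 0 h and lowest at 42 °C, 0 h by the probe sets used. With quantile-normalized and median-shifted values FBXO22 was 0.27 and 0.35 log2 units higher at 44 °C, 6 h than at 44 °C, 0 h. After the median shift FBXO7 differed from the control by -0.095 log2 units at 42 °C, 0 h and by -0.108 at 42 °C, 6 h. Another FBXO22 probe set was highest at 44 °C, 0 h (419) and lowest at 42 °C, 0 h (198), as deposited. A further one was highest at 42 °C, 12 h (391) and lowest at 44 °C, 12 h (218). Another FBXO7 probe set was also highest at 44 °C, 0 h (935) but lowest on the control array (629).

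FBXO31, an adaptor for cyclin D1, read 122, 73.9 and 45.4 after 44 °C and 63.1, 112 and 123 after 42 °C, against 66.3. FBXO38, an adaptor for the immune receptor PDCD1, read 538, 366 and 241 after 44 °C and 249, 656 and 448 after 42 °C, against 372. FBXL20 read 291, 189 and 121 after 44 °C and 145, 174 and 163 after 42 °C, against 153. As deposited, each of these had its lowest value at 44 °C, 12 h by the probe sets used. After the median shift FBXL20 differed from the control by 0.11 log2 units there and by -0.10 at 42 °C, 6 h. FBXO38 then differed by -0.18 log2 units at 44 °C, 12 h and by -0.41 at 42 °C, 0 h. Other probe sets of FBXO38 (49.3 and 203) and 1 of FBXL20 (47.6) were also lowest at 44 °C, 12 h as deposited. Another of FBXL20 was lowest on the control array (69.7), and another of FBXO31 at 44 °C, 6 h (29.8).

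FBXL14, an adaptor for the transcription factor SNAI1, read 1103, 781 and 516 after 44 °C and 1307, 823 and 698 after 42 °C, against 719, with both 0 h arrays above the control. FBXO46 read 236, 148 and 75.6 after 44 °C and 118, 222 and 183 after 42 °C, against 97.0. FBXO46 was 1.28 log2 units above the control at 44 °C, 0 h and 1.20 at 42 °C, 6 h as deposited, but 0.96 and 0.94 after quantile normalization. FBXL4, a mitochondrial adaptor that restrains mitophagy, read 105, 132 and 67.4 after 44 °C and 106, 198 and 191 after 42 °C, against 147.

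The other bright genes that never passed were FBXL17, FBXL18, FBXO3, FBXO4, FBXO8, FBXO16, FBXO21, FBXO25, FBXO28, FBXW4, FBXW9 and FBXW12. Together with FBXO6 and the 11 genes of the preceding paragraphs they make 24, whose deposited differences from the control ranged from -1.14 to 1.28 log2 units. FBXL18 (490.3 at 44 °C, 0 h against 242 in the control) and FBXO16 (94.1 against 46.6) were past 2-fold as deposited at 44 °C, 0 h but not after scaling, and FBXL17 (45.1 at 44 °C, 12 h against 99.2) likewise. FBXW4 read 299.5, 164 and 141 after 44 °C and 152, 113 and 145 after 42 °C, against 204. The median ratio of highest to lowest array was 2.20 for these 24 genes, against 3.38 for the 12 bright genes that passed somewhere. The 12 were chosen by their differences, so that contrast is a description only.

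The 11 dim genes that never passed were FBXL6, FBXL7, FBXL19, FBXO2, FBXO17, FBXO24, FBXO27, FBXO36, FBXO39, FBXO41 and FBXW8. Their differences ranged from -1.07 to 0.88 log2 units with the floor applied. FBXO17 was above the floor on the 42 °C, 12 h array alone (32.6, against 4.20 in the control). FBXO39 was above the floor on the 44 °C, 0 h array alone (29.4, against 15.5).

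Probe sets of the same gene give the one internal check on these arrays. Of 35 calls in the 13 comparisons, 27 had at least 1 other probe set of the gene above the floor. In 18 of them all others had the same sign, in 5 all others were also past 2-fold, and in 5 none had the same sign. The 5 with all others past 2-fold were 4 of the FBXO5 calls and the FBXL5 rise from 0 to 6 h after 42 °C.

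**Figure D4:**
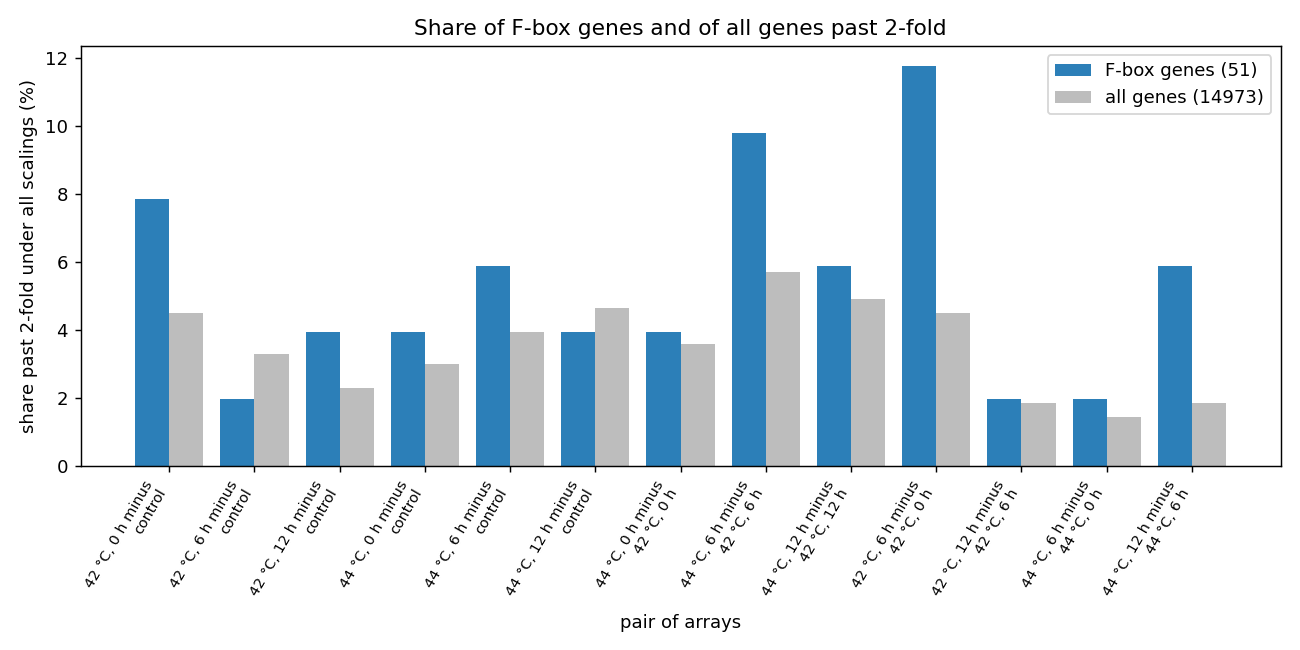
Share of genes past 2-fold under all 3 scalings in each of 13 pairs of arrays, for the 51 F-box genes (blue) and all genes that reached the floor (grey). The F-box share is highest, at 11.8%, for 42 °C, 6 h minus 42 °C, 0 h, where 6 genes stand behind the bar.

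The rest of the SCF machinery is given by its counts, in a list that also holds the cullins CUL2, CUL3, CUL4A, CUL4B and CUL5. Of 29 genes of the SCF core, neddylation, the COP9 signalosome and other cullins with a probe set, 1 passed in any of the 13 comparisons. That was CUL7, a cullin that pairs with FBXW8. Of all genes, 19.0% passed at least once. CUL7 read 165, 69.3 and 70.9 after 44 °C and 70.8, 62.7 and 56.1 after 42 °C, against 59.0, and rose by 1.48 log2 units at 44 °C, 0 h. SKP1 read 10707, 10682.7 and 8539.6 after 44 °C and 8843, 10297 and 9959.7 after 42 °C, against 8518, and CUL1 487, 421 and 402 after 44 °C and 428, 638 and 639 after 42 °C, against 533. The median of these 29 genes at 44 °C, 12 h was -0.07 log2 units, against -0.16 for all genes.

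Of 10 listed F-box genes with other symbols, 7 had a probe set. KDM2A, a histone demethylase with an F-box, rose by 1.10 log2 units at 42 °C, 0 h (1583, against 736 in the control). LMO7 was at least 1.41 log2 units lower at 44 °C, 12 h (12.0, below the floor, against 56.9). CCNF, cyclin F, was 1.92 log2 units higher at 42 °C, 6 h than at 0 h (489 against 129). SKP2, which directs degradation of CDKN1B, read 2493, 1734 and 1569 after 44 °C and 2384, 2047 and 1891 after 42 °C, against 2466, and BTRC 192, 154 and 111 after 44 °C and 134, 230.4 and 149 after 42 °C, against 210.0. Neither passed in any comparison.

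Among 20 measured genes whose proteins are known substrates of F-box ligases, 2 fell at 42 °C, 0 h against the control, NFKBIA (log2 difference -2.21) and CCNE2 (-1.17). Of all genes, 3.02% were lower and 1.46% higher in that comparison. SNAI1 read 133, 214 and 331 after 44 °C and 8.62, 4.34 and 2.56 after 42 °C, against 2.92 on the control array. It was at least 2.63, 3.32 and 3.95 log2 units higher than the control at 44 °C, 0, 6 and 12 h. NFKBIA fell by 1.18 log2 units at 44 °C, 6 h. From 0 to 6 h after 42 °C it was 2.28 log2 units higher (2456 against 506), with 2341 on the control array. MYC, JUN, MCL1 and NOTCH1, substrates of FBXW7, passed in no comparison. CCNE1, another substrate of FBXW7, was 1.15 log2 units higher at 44 °C, 6 h than at 42 °C, 6 h (102 against 46.0). Between temperatures NFKBIA was 1.90 log2 units higher at 44 °C, 0 h than at 42 °C, 0 h, and PER2 and ATF4 rose from 6 to 12 h after 42 °C. Over all genes, 2.32%, 1.49% and 1.70% were higher than the control at 44 °C, 0, 6 and 12 h, and 2.44% lower at 6 h. For 44 °C against 42 °C, 2.97% were higher at 0 h and 1.68% at 6 h. After 42 °C, 3.47% were higher at 6 h than at 0 h and 0.962% at 12 h than at 6 h. The values of the substrate genes are transcript levels and carry no information on the stability of the proteins.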

How the data were processed

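The authors deposited 1 table of probe set intensity for 54675 probe sets on 7 arrays. Per the labels, total RNA was turned into biotin-labelled cRNA by one-cycle synthesis. Which algorithm summarised the probes was not given in the sources used. All 7 columns were used and 0 columns belonged to other samples. The deposited intensities were taken as log2 values with no rescaling, and values below the floor of 21.4 were set to it. Calls needed a log2 difference of at least 1 in the deposited values, in quantile-normalized values, and in values shifted to equalise the array medians of the 20902 probe sets above the floor on all arrays. Of the probe sets, 41097 listed 1 gene, 1801 several, and 11777 were not listed. Symbols were updated through gene identifiers with RefSeq on GRCh38.p14, which gave 19775 genes, 14973 reaching the floor. Python 3.11.15, numpy 2.4.6, pandas 2.3.3 and matplotlib 3.10.9 were used.

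Named were the genes past the call rule, the 3 largest differences each way among bright genes in the 9 planned comparisons, and a fixed list of adaptors with known roles, 35 genes in all. FBXL15, FBXO15, FBXO16, FBXO17, FBXO24, FBXO39, FBXL18 and the complete lists of uncalled genes were chosen after seeing values. The 4 comparisons between times, the use of bright genes alone and the share of genes that passed at least once were added after seeing the data. The members and lists were chosen with earlier results of these data known. Alternatives were each scaling alone, no floor, a floor 2 times as high and the mean of the probe sets of a gene. The number of arrays limits the precision.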

Additional observations from a re-analysis of the deposited data

Results flagged for a closer look

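FBXO45 and FBXW11 lay below the control on all 3 arrays after 44 °C and above it on all 3 after 42 °C, under all 3 scalings. The mean log2 difference of the 3 arrays after 44 °C minus that of the 3 after 42 °C was -0.895 for FBXO45 and -0.865 for FBXW11. The difference was not tested, and both temperatures share the 1 control array. The second probe set of FBXW11 read 201, 181 and 174 at 0, 6 and 12 h after 44 °C and 196, 319 and 243 after 42 °C, against 256 on the control array, so it was above the control on 1 of the 3 arrays after 42 °C. A second probe set of FBXO45 read 161, 142 and 112 after 44 °C and 176, 279 and 213 after 42 °C, against 244, likewise above the control at 42 °C, 6 h alone, and the other, dimmer one read 33.8, 22.9 and 27.9 after 44 °C and 41.2, 28.6 and 27.0 after 42 °C, against 46.0, below the control on every heated array.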

How the results depend on the processing

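Call counts of F-box genes depended on the scaling and the floor, and in 44 of 78 combinations of comparison and setting moved by over 1.5 times. These counts stand without the share of all genes at the same setting and are not read as particular to the family. With deposited values alone they were 3 at 42 °C, 6 h, 6 at 44 °C, 0 h and 9 at 44 °C, 12 h against the control, 11, 9 and 16 for 44 °C against 42 °C at 0, 6 and 12 h, 11 for 42 °C, 6 h against 0 h, 2 for 42 °C, 12 h against 6 h, and 2 for 44 °C, 6 h against 0 h. With quantile normalization alone they were 2 at 42 °C, 6 h, 4 at 44 °C, 0 h, 5 at 44 °C, 6 h, 4 for 44 °C against 42 °C at 0 h and 2 for 44 °C, 6 h against 0 h. With the median shift alone they were 3 at 42 °C, 6 h, 5 at 44 °C, 6 h, 8 for 44 °C against 42 °C at 6 h and 2 for 44 °C, 6 h against 0 h. By construction each of these asks for 1 scaling in place of 3. With no floor they were 2 at 42 °C, 6 h, 5 at 42 °C, 12 h, 6 at 44 °C, 6 h, 5 at 44 °C, 12 h, then 4, 9 and 6 between temperatures at 0, 6 and 12 h, and 5, 6 and 7 for 42 °C, 12 h against 6 h, 44 °C, 6 h against 0 h and 44 °C, 12 h against 6 h. With a floor 2 times as high they were 2, 0 and 0 at 42 °C, 0, 6 and 12 h, 1 at 44 °C, 0 h, 1 at 44 °C, 6 h, 1 between temperatures at 12 h, and 0 for 42 °C, 12 h against 6 h and 44 °C, 12 h against 6 h. With the mean of the log2 values of the probe sets of a gene, taken before the floor and over 45 F-box genes, they were 1 at 42 °C, 12 h, 1 at 44 °C, 6 h, 1 at 44 °C, 12 h, 1 between temperatures at 0 h and 1 at 12 h, 3 for 42 °C, 6 h against 0 h, 0 for 42 °C, 12 h against 6 h and 1 for 44 °C, 12 h against 6 h. FBXO42 at 42 °C, 6 h against 0 h turned sign with that mean, to -0.0083 log2 units, through a probe set below the floor on both arrays (0.996 at 6 h and 11.5 at 0 h), while the other 3 were all higher at 6 h. Except where stated, the cause was not tested. The F-box median minus that of all genes at 44 °C, 12 h against the control was -0.31 as deposited, -0.09 with quantile-normalized and -0.12 with median-shifted values. No paired analysis was possible because each condition has 1 array. For dim genes, signal over background limits what can be read.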

Other observations

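FBXO15, which was below the floor on every array, has in its promoter window the 3-unit heat shock element letters found in FBXW10B and FBXW10. It read 10.5, 2.90 and 5.45 at 0, 6 and 12 h after 44 °C and 14.8, 10.9 and 15.4 after 42 °C, against 19.4 on the control array. FBXO24 read 22.9, 4.29 and 15.8 after 44 °C and 27.0, 2.64 and 24.2 after 42 °C, against 3.53 on the control array, so 3 of the 6 heated arrays were above the floor.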
